A study of Mus musculus with 2 samples.

Results

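Immediate early genes and heat shock genes were compared between brain mononuclear cells of CD47 KO and WT mice. Both kinds of transcript are known to be induced when tissue is digested into single cells, and 42 genes were listed, 31 immediate early and 11 heat shock. A listed gene was taken where the annotation of the array gave at least 1 probe set that symbol and no other. This held for 41 of the 42 genes, among 18193 genes named in all, and they were read by 79 probe sets. *Hsp90ab1*, a cytosolic HSP90 gene, had no such probe set and is not analysed here.

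The study asked how the loss of CD47, the ligand of the inhibitory receptor SIRPα on microglia, changes these cells. The CD47 KO sample held pooled RNA of 6 *Cd47* null mice aged 12 to 16 wks, and the WT sample held pooled RNA of 7 mice aged 10 to 15 wks. Whole brains were digested with collagenase and DNase I at 37°C for 30 min and, after trituration, for another 10 min. Cells at the interface of 70% and 37% Percoll were collected, and 20 ng of RNA from each pool was amplified and read on 1 GeneChip Mouse Genome array. The null allele is carried by all cells of the mouse and not only by microglia. A single array stands for each genotype, which leaves no replicates to test a difference against and no measure of the spread between mice. Precision throughout is limited by the number of arrays. Neither an undigested nor a chilled preparation was among the samples analysed here, so the part of each signal that arose during digestion was not measured.

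Immediate early genes are transcribed within minutes of a stimulus, from promoters that stand ready and without the need for new protein. Kinases of the MAP kinase pathway and calcium signals act on them through serum response factor and CREB, which bind the CArG box and the cyclic AMP response element. Heat shock genes are driven by heat shock factor, which binds repeats of a short unit called the heat shock element, and their products hold or refold unfolded proteins. In microglia, both programmes are known to be switched on by warm enzymatic dissociation.

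Exact matches to these elements were unequally spread over the promoters of the members. RefSeq windows from 250 bases before to 50 bases after the start of transcription (GRCm38.p6) were at hand for 25 immediate early and 8 heat shock members, and for 27025 genes in all. A gene with several starts was counted once, and both strands were searched. *Fosl1*, *Egr1*, *Egr3*, *Myc*, *Ier2*, *Arc*, *Hspa8*, *Hsp90aa1* and *Hsp90ab1* were not matched. The full cyclic AMP response element, TGACGTCA, was found in 3 immediate early members (12%) and in 2.03% of all genes. The windows of the 3 are shown because the element is intact in them, in capitals, and they are given 5′ to 3′ on the strand of the gene. They lie at chr15:79347480-79347509 (plus strand, *Maff*), chr17:26508597-26508626 (minus strand, *Dusp1*) and chr1:134079303-134079332 (minus strand, *Btg2*).
Maff: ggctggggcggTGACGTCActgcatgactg
Dusp1: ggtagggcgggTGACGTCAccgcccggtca
Btg2: gttcccaataaTGACGTCAgtgagcgatga

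The shorter core TGACG, which every full element also contains, was found in 15 of the 25 immediate early members (60%), in 5 of the 8 heat shock members (62.5%) and in 23% of all genes. The CArG box was found in 2 of the 25 immediate early members (8%), *Egr2* and *Zfp36*, and in 1.81% of all genes. Its capitals are shown for *Egr2* at chr10:67537484-67537513 and chr10:67537787-67537816 (plus strand, before different starts of the gene) and for *Zfp36* at chr7:28379267-28379296 (minus strand).
Egr2, first window: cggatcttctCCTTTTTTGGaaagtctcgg
Egr2, second window: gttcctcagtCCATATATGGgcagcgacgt
Zfp36: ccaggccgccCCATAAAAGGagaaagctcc

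The heat shock element, searched as 3 units of GAA and its reverse complement TTC that alternate with 2 bases between them, was found in 3 of the 8 heat shock members (37.5%), in none of the 25 immediate early members and in 0.662% of all genes. *Hspe1* and *Hspd1*, which encode the partner chaperonins of the mitochondrion, are transcribed away from each other, and a single stretch at chr1:55088053-55088082 holds the element for both. It is written below on the strand of each gene, with overlapping copies of the element in capitals. In *Hsph1* the element lay after the start of transcription.
Hspe1: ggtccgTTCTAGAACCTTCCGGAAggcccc
Hspd1: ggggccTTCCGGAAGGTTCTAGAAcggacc

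The AP-1 site, TGANTCA, was found in 1 member, *Hspa5*, and in 8.97% of all genes, and TATAAA was found in 4 immediate early members (16%) and 15.7% of all genes. A match is a description of the letters, and no binding was measured. Only exact letters within the window were searched. A member without a match may therefore carry an element further away or in altered form.

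Brightness was deposited as MAS5 signals, which are linear and in arbitrary units. The median signal was 146 on the CD47 KO array and 161 on the WT array, and the 75th percentile was 532 on the CD47 KO array and 541 on the WT array. A gene was valued by its probe set of highest mean signal over both arrays, called the brightest here, and counted as expressed where that signal was at or above the median of the array in CD47 KO cells, in WT cells or in both. This left 11682 genes, 30 immediate early members and 10 heat shock members. The exception among the members was *Npas4*, an activity-dependent factor known from neurons, with signals of 23.9 in CD47 KO cells and 3.58 in WT cells, both below the array medians. *Cd47* itself had Log2 ratios (KO/WT) between -1.45 and -1.86 on its 5 probe sets, which still had signals of 334 to 1688 in CD47 KO cells, above the array median. Whether these probe sets read the altered stretch was not checked, and they do not measure protein. The mice are labelled male, while *Xist*, the RNA of X inactivation, had a signal of 6530 in the CD47 KO pool and 7070 in the WT pool.

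Most members were bright on both arrays. Of the 40 expressed members, 24 lay among the brightest 25% of expressed genes, 16 of them immediate early and 8 heat shock. *Zfp36*, which encodes a protein that destabilises cytokine mRNA, had signals of 13936 in CD47 KO cells and 12617 in WT cells. *Rhob*, a small GTPase gene, had 13381 in CD47 KO cells and 12171 in WT cells. *Hspa8*, the constitutive HSP70 gene, had 11365 in CD47 KO cells and 10814 in WT cells. All of these lay above the 99th percentile of both arrays. Probe sets differ in how strongly they bind, so signals were compared between the arrays for a given probe set and not between genes.

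Both kinds of gene had medians near 0 on the log2 scale. The median Log2 ratio (KO/WT) was 0.02 over the 30 immediate early members, with 15 higher in CD47 KO cells and 15 lower, and 0.04 over the 10 heat shock members, with 5 higher and 5 lower. Over all expressed genes it was 0.00, with 5879 higher and 5803 lower. The medians of the members kept within 0.1 of these values under every other scaling, filter or choice of probe set tried, and both changed sign within that range. The typical size of a difference, the median of the absolute Log2 ratio, was 0.16 for immediate early members, 0.09 for heat shock members and 0.29 for all expressed genes. Bright genes differ less on these arrays, and in the brightest 25% of genes that size was 0.15, against 0.11 for the 24 members there.

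**Figure D1:**
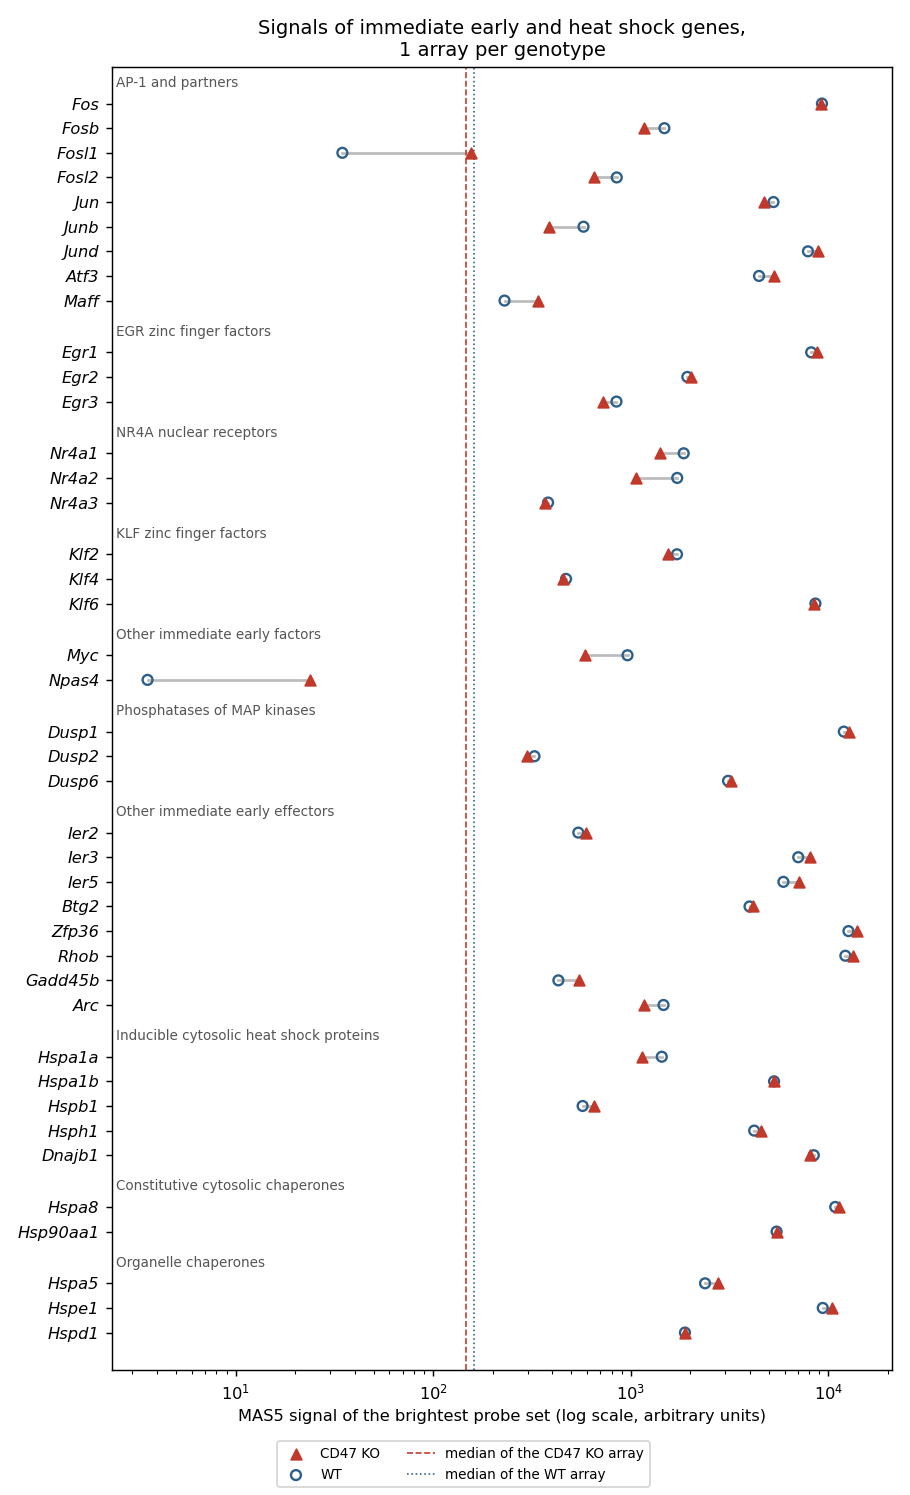
MAS5 signal (log scale, arbitrary units) of the brightest probe set of each member in CD47 KO cells (filled triangles) and WT cells (open circles), 1 array each, ordered by role, with vertical lines at the array medians of 146 (CD47 KO) and 161 (WT). The symbols of most members overlap far to the right of the medians, while *Fosl1* (155 in CD47 KO cells and 34.7 in WT cells) and *Npas4* (23.9 in CD47 KO cells and 3.58 in WT cells) stand apart at the dim end.

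Only *Fosl1* passed 2-fold. None of the 30 immediate early members was more than 2-fold lower in CD47 KO cells, and none of the 10 heat shock members passed 2-fold or 1.5-fold in either direction. Of all expressed genes, 3.53% were more than 2-fold higher and 5.41% more than 2-fold lower. Past 1.5-fold, *Fosl1* was higher and *Myc* and *Nr4a2* were lower on their brightest probe sets, while 10.1% of all expressed genes were higher and 13.6% lower. These shares depend on brightness, since 0.103% of the brightest 25% of genes were more than 2-fold higher and 0.514% more than 2-fold lower. None of the 24 members in that band passed 2-fold. A count near 0 is thus also what bright genes as a whole gave. For 39 of the 40 members the Log2 ratio lay within the middle 95% of genes in the same band of brightness, and *Fosl1* was the exception. Such a range leaves some genes outside by construction, and *Fosl1* was counted as expressed only through the array on which it was high.

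**Figure D2:**
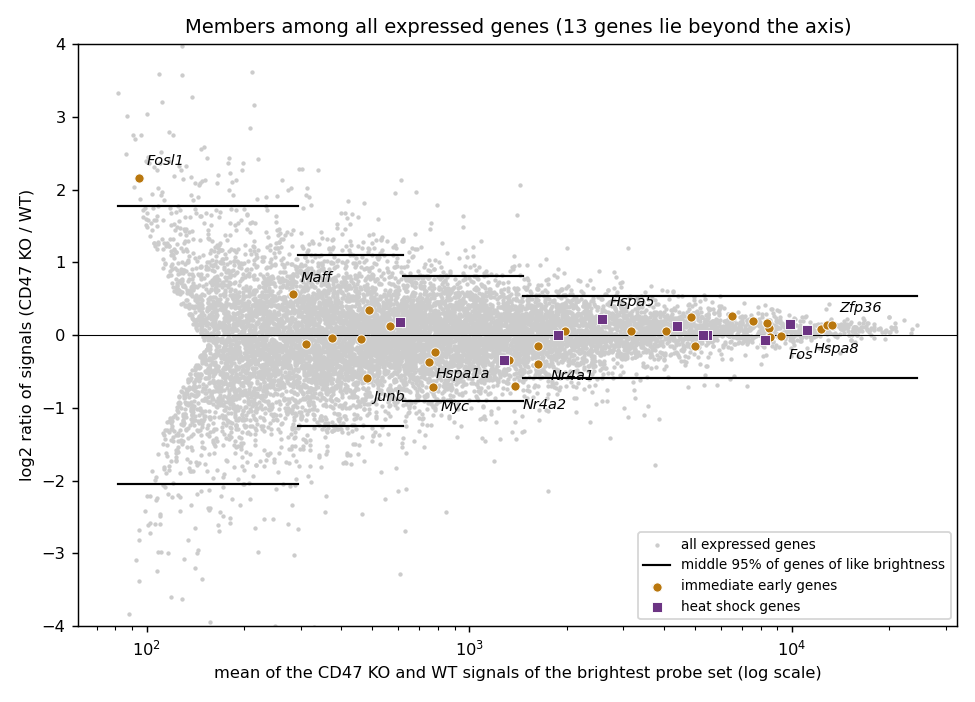
Log2 ratio (KO/WT) of the brightest probe set against the mean of its CD47 KO and WT signals (log scale) for all 11682 expressed genes (grey), immediate early members (circles) and heat shock members (squares), with black lines at the edges of the middle 95% of genes in each 25% band of brightness. The lines narrow from -2.05 and 1.77 in the dimmest band to -0.59 and 0.54 in the brightest. *Fosl1*, counted as expressed through the CD47 KO array alone, lies above its line, while 13 genes lie beyond the axis.

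Genes of the AP-1 complex differed in both directions. AP-1 is a dimer of a FOS and a JUN protein, and of its 9 members and partners 4 had higher signals in CD47 KO cells and 5 lower, with a median Log2 ratio of -0.01. *Fos*, the prototype immediate early gene, had signals of 9212 in CD47 KO cells and 9266 in WT cells, a Log2 ratio of -0.01. *Jun*, its main partner, had 4730 in CD47 KO cells and 5267 in WT cells on the brightest probe set. On the other it had 4667 in CD47 KO cells and 4399 in WT cells. The Log2 ratios of -0.16 and 0.09 differ in sign, so no direction is given for *Jun*.

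*Fosl1*, which encodes the FOS family protein FRA-1, had a signal of 155 in CD47 KO cells and 34.7 in WT cells (Log2 ratio 2.16). In WT cells this was under 43.0, the 25th percentile of that array, so the size of the ratio is not well measured, and it was 1.40 with the 25th percentile of all signals added to both. Its second probe set had 88.8 in CD47 KO cells and 14.9 in WT cells. Both probe sets were higher in CD47 KO cells, and both were dim. The brightest reached the array median in CD47 KO cells alone, so *Fosl1* was counted as expressed only through the array on which it was high, and where the median was required on both arrays no immediate early member passed 2-fold. Among the remaining AP-1 genes the brightest probe sets stayed under 1.5-fold.

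*Junb*, a JUN gene that can restrain the activity of *Jun*, had 384 in CD47 KO cells and 576 in WT cells (Log2 ratio -0.58). *Fosb*, a FOS gene known for its lasting splice form in neurons, had 1167 in CD47 KO cells and 1478 in WT cells (-0.34). *Fosl2*, encoding FRA-2, had 654 in CD47 KO cells and 848 in WT cells (-0.37), and its dimmer probe set had 140 in CD47 KO cells and 325 in WT cells (-1.21). On the other side, *Maff*, a small MAF partner without an activation domain, had 338 in CD47 KO cells and 229 in WT cells (0.56). *Atf3*, a stress-induced bZIP gene, had 5272 in CD47 KO cells and 4451 in WT cells (0.24), and *Jund*, the JUN gene most active at rest, had 8833 in CD47 KO cells and 7872 in WT cells (0.17).

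The zinc finger factors bind GC-rich sites in DNA. *Egr1*, the best known EGR gene, had signals of 8750 in CD47 KO cells and 8172 in WT cells (Log2 ratio 0.10). *Egr2* had Log2 ratios of 0.06 and 0.25 on its probe sets, and *Egr3* had -0.23 and 0.12. Of the KLF genes, *Klf2* and *Klf4* are known to temper inflammation in macrophages. On the brightest probe set the Log2 ratio was -0.14 for *Klf2*, -0.05 for *Klf4* and -0.02 for *Klf6*. These values are smaller than the spread between probe sets of a gene, given below, so no direction is given for them. *Klf6* had 8466 in CD47 KO cells and 8587 in WT cells, and its other 4 probe sets ran from -0.26 to 0.23. *Myc*, encoding a growth-promoting factor, had 585 in CD47 KO cells and 962 in WT cells on its only probe set. It was 1.64-fold lower, a Log2 ratio of -0.72. Only the scaling and the treatment of low signals could move this value, which then stayed between -0.72 and -0.68.

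The NR4A genes encode orphan nuclear receptors that act without a classical ligand. *Nr4a1* had 1407 in CD47 KO cells and 1850 in WT cells (Log2 ratio -0.40), and *Nr4a3* had 369 in CD47 KO cells and 381 in WT cells (-0.04), whose sign turned after quantile normalisation. *Nr4a2* was 1.62-fold lower on its brightest probe set, with 1057 in CD47 KO cells and 1716 in WT cells (-0.70). Its probe sets did not point the same way. The second in brightness had 1306 in CD47 KO cells and 546 in WT cells (1.26), and the dimmest of those expressed had 23.1 in CD47 KO cells and 260 in WT cells (-3.49). The remaining 2 that were expressed had Log2 ratios of 0.00 and 0.38. The 5 expressed probe sets spanned 4.75 on the log2 scale, with a mean of -0.51, and no direction is given for *Nr4a2*.

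**Figure D3:**
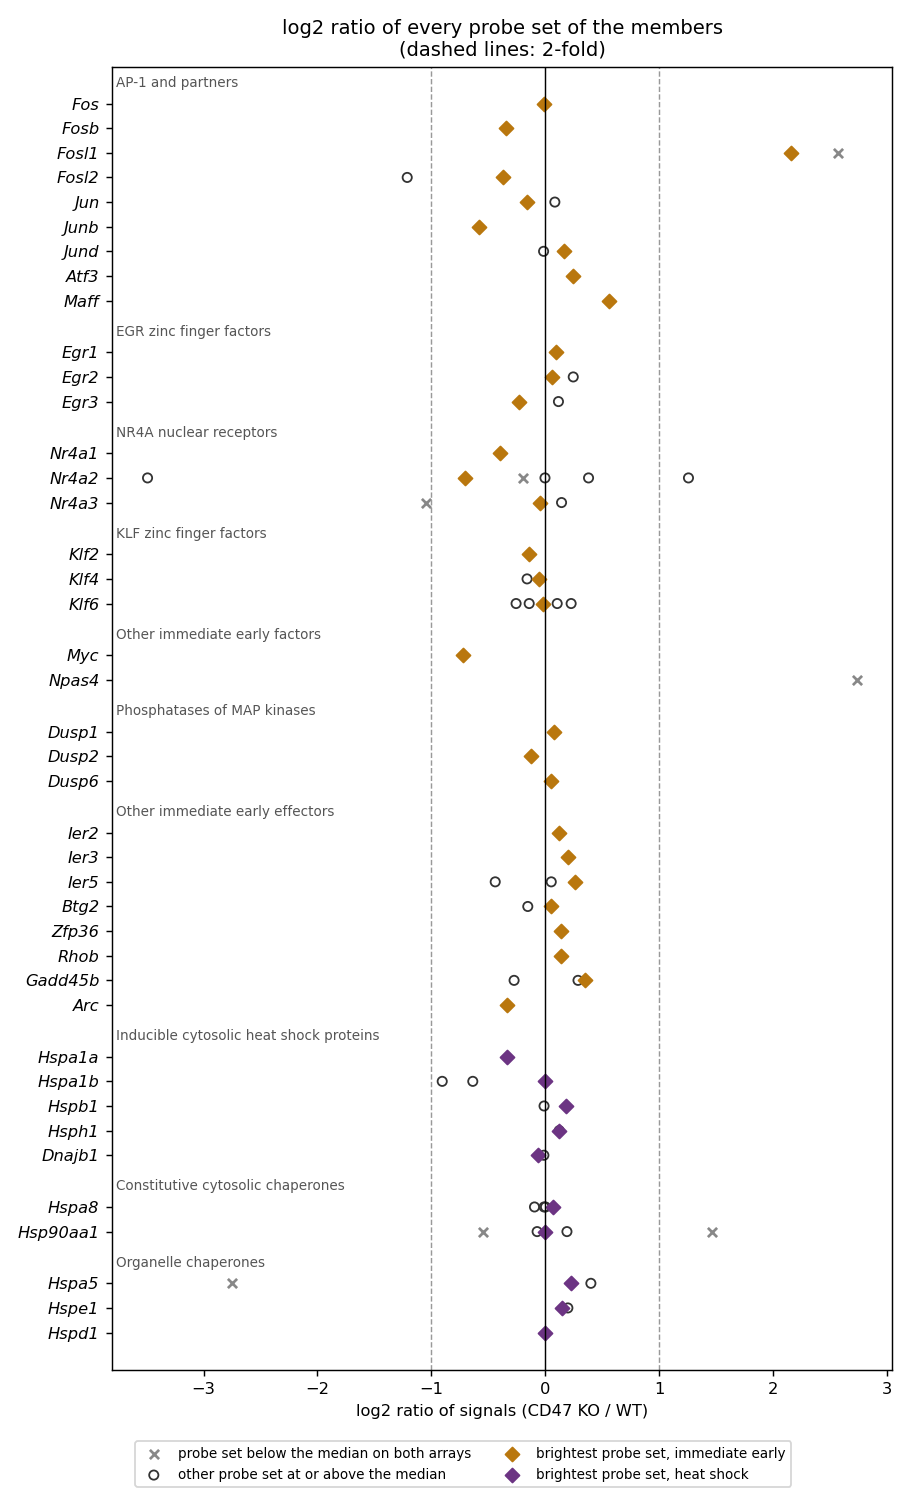
Log2 ratio (KO/WT) of all 79 probe sets of the members, by gene and role, with filled diamonds for the brightest expressed probe set, open circles for other expressed probe sets, crosses for probe sets below the median on both arrays and dashed lines at 2-fold. Most symbols lie near 0, the probe sets of *Nr4a2* run from -3.49 to 1.26, and the heat shock genes have no expressed probe set beyond 2-fold.

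Most effector genes had slightly higher signals in CD47 KO cells as deposited. So did the brightest 25% of genes, where most effectors lie, with 1765 of 2921 higher (1479 after quantile normalisation). The dual-specificity phosphatases, which switch off MAP kinases, had Log2 ratios of 0.08 for *Dusp1* (12625 in CD47 KO cells and 11956 in WT cells), -0.12 for *Dusp2* and 0.05 for *Dusp6*. With quantile normalisation all 3 were below 0. Of 8 further effectors, 7 had a Log2 ratio above 0 and 1 below, with a median of 0.14, and after quantile or loess normalisation, where *Btg2* turned, 6 were above 0. *Ier3*, a survival gene, had 8051 in CD47 KO cells and 7027 in WT cells (0.20). *Ier5*, known as a helper of heat shock factor, had 7085 in CD47 KO cells and 5913 in WT cells (0.26), but 0.05 and -0.44 on its dimmer probe sets.

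*Gadd45b*, a stress sensor gene, had Log2 ratios of 0.35, 0.29 and -0.27 from its brightest to its dimmest probe set. *Ier2*, encoding a nuclear regulator, had 0.12, *Zfp36* and *Rhob* had 0.14 each, and *Btg2*, an antiproliferative gene, had 0.05 and -0.15. *Arc*, a synaptic gene that neurons induce with activity, was the member below 0, with 1161 in CD47 KO cells and 1463 in WT cells (-0.33). None of these differences reached 1.5-fold, and those of bright members lay well inside the range of other genes in their band.

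Heat shock genes had Log2 ratios from -0.34 to 0.22. Of the inducible cytosolic genes, *Dnajb1*, an HSP40 co-chaperone, had signals of 8054 in CD47 KO cells and 8429 in WT cells (-0.07). *Hsph1*, the HSP110 gene that recharges HSP70, had 4563 in CD47 KO cells and 4206 in WT cells, and its 2 probe sets gave the same Log2 ratio of 0.12. *Hspb1*, a small heat shock gene, had 647 in CD47 KO cells and 570 in WT cells (0.18), and -0.01 on its other probe set.

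The inducible HSP70 genes were level or lower. *Hspa1b* had 5290 in CD47 KO cells and 5303 in WT cells on its brightest probe set (Log2 ratio 0.00). Its other probe sets had 661 in CD47 KO cells and 1028 in WT cells (-0.64) on one and 443 in CD47 KO cells and 828 in WT cells (-0.90) on the next, and the mean of all 3 was -0.51. *Hspa1a* had 1134 in CD47 KO cells and 1433 in WT cells (-0.34). The 2 genes are near-identical copies and their probe sets may read both, so the values of each are uncertain. No expressed probe set of either gene was above 0.

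Of the constitutive cytosolic chaperones, *Hsp90aa1*, an HSP90 gene, had 5457 in CD47 KO cells and 5462 in WT cells (Log2 ratio 0.00), with 0.19 and -0.07 on the next probe sets and 2 others below the array medians. The 4 probe sets of *Hspa8* had Log2 ratios of 0.07, 0.00, -0.01 and -0.09. Of the 3 organelle chaperones, 2 had Log2 ratios above 0, within the spread between probe sets of bright genes. *Hspa5*, encoding BiP of the endoplasmic reticulum, had 2773 in CD47 KO cells and 2374 in WT cells (0.22). A probe set of like brightness had 2768 in CD47 KO cells and 2095 in WT cells (0.40). *Hspe1*, encoding the mitochondrial co-chaperonin HSP10, had 10392 in CD47 KO cells and 9354 in WT cells (0.15), and 0.20 on the other. Its divergently transcribed partner *Hspd1*, encoding HSP60, had 1872 in CD47 KO cells and 1878 in WT cells (0.00). The action of the heat shock element printed above, which these genes share, was not measured.

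Probe sets of a gene gave the only internal measure of error, although differences in probe binding and splicing enter it too. Of 20 members with at least 2 expressed probe sets, 8 had the same sign on all of them, 3 of 12 immediate early and 5 of 8 heat shock. In 15 of the 20 the Log2 ratios spanned less than 0.5, and in *Nr4a2* alone more than 1. Over all genes, the difference between the 2 brightest probe sets of a gene had an SD of 0.417 in the brightest 25% of genes and 1.09 in the dimmest. In the band of *Myc* and *Nr4a2* it was 0.697, and their Log2 ratios were of that size. *Fosl1*, dim in WT cells, is not set against these spreads. The Log2 ratio of each other expressed member was smaller than the SD of its band. The sign of 5 of the 40 members, *Nr4a3*, *Dusp1*, *Dusp6*, *Btg2* and *Hspa8*, changed with the scaling of the arrays, and none of these had a Log2 ratio beyond 0.08 in size.

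Within the band just below the brightest 25%, all 7 members had lower signals in CD47 KO cells on their brightest probe set. They were *Fosb*, *Fosl2*, *Egr3*, *Nr4a2*, *Myc*, *Arc* and *Hspa1a*, with a median Log2 ratio of -0.34, whereas 1469 of the 2920 genes of this band were lower. The signs held under each scaling, but the scalings moved the median of this band only between -0.0076 and -0.0001. The member nearest 0 had -0.23, so the scalings could hardly turn a sign. All 7 lay within the middle 95% of genes in this band. The grouping was noticed after the values were seen, and it rests on the brightest probe sets, since *Nr4a2* and *Egr3* have others above 0. In the brightest band, 15 of the 24 members were higher and 9 lower, as were 1765 and 1156 of its 2921 genes, and after quantile or loess normalisation 12 members were on either side. Both the members and the other genes of this band leaned to higher signals in CD47 KO cells as deposited.

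Genes that act before, beside or after the members were read from related lists. Of 16 expressed kinases and factors upstream of immediate early genes, 9 were higher and 7 lower, which turned to 7 and 9 when the ratios were centred, with a median Log2 ratio of 0.00. *Mrtfa*, encoding a coactivator of serum response factor, passed 2-fold, with 259 in CD47 KO cells and 630 in WT cells (-1.29). Among 9 other bZIP partners none passed 2-fold. Of 35 heat shock factors and co-chaperones, 19 were higher and 16 lower (16 and 19 after loess normalisation), and *Stip1*, which bridges HSP70 and HSP90, was the single gene past 2-fold, with 440 in CD47 KO cells and 928 in WT cells (-1.08). Of 23 genes of endoplasmic reticulum stress, 13 were higher and 10 lower, and *Serpinh1*, a collagen chaperone gene, passed 2-fold, with 838 in CD47 KO cells and 1922 in WT cells (-1.20). Past 2-fold, 3.53% of all expressed genes were higher and 5.41% lower. A single gene past 2-fold is therefore not read as a result about its list.

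Of 42 other expressed immediate early and dissociation genes, 3 were more than 2-fold higher and 5 more than 2-fold lower, with a median Log2 ratio of 0.10. Of all expressed genes, 3.53% were higher and 5.41% lower past 2-fold. The lower count was 4 after quantile and 3 after loess normalisation, and 11 of the 42 genes lay in the dimmest 25%, against 2 of the 30 members. The cytokine gene *Tnf* (1.28), the neurotrophin gene *Bdnf* (1.19) and the kinase gene *Plk3* (1.02) were higher. *Ccn1* (-1.57) and *Ccn2* (-1.01), matricellular genes, *Trib1* (-1.34), a pseudokinase gene, *Dusp10* (-1.21), a MAP kinase phosphatase gene, and *Sik1* (-1.14), a kinase gene, were lower. Of these 8 genes, 6 reached the array median only in the genotype where they were higher, as *Fosl1* did, so that their differences are partly set by the filter. These were *Tnf*, *Bdnf* and *Plk3* in CD47 KO cells and *Ccn1*, *Trib1* and *Dusp10* in WT cells. Of the 8, 7 lay in the dimmest 25% of expressed genes, as did *Fosl1*, and *Sik1*, with 539 in CD47 KO cells and 1187 in WT cells, was the exception.

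**Figure D4:**
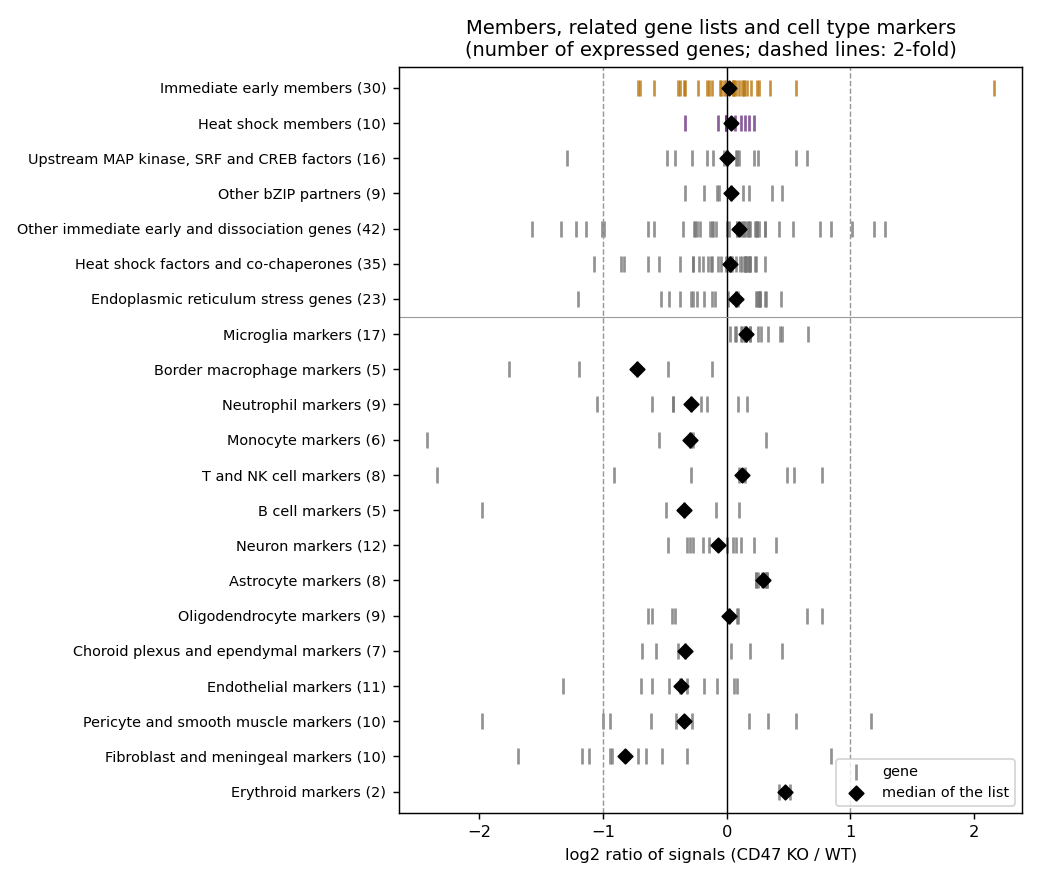
Log2 ratio (KO/WT) of each expressed gene (ticks) and the median (black diamonds) for the members, related lists and cell type markers, with the number of expressed genes in parentheses and dashed lines at 2-fold. The medians of the members lie at 0.02 and 0.04, those of the related lists between 0.00 and 0.10, and those of the fibroblast and meningeal markers at -0.82.

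Markers of the cell types in the preparation differed between the arrays. In such bulk RNA, fewer cells of a type and less RNA per cell cannot be told apart. All 17 expressed microglia markers had higher signals in CD47 KO cells (14 of 17 after quantile or loess normalisation). All 17 lay in the brightest 25% of genes, where 1765 of 2921 were higher as deposited, with a median Log2 ratio of 0.05. The markers had a median of 0.16 and summed signals of 177125 in CD47 KO cells and 155052 in WT cells. The 2 brightest were *C1qb* (20909 in CD47 KO cells and 19785 in WT cells) and *Tyrobp* (17617 in CD47 KO cells and 16223 in WT cells). All 8 astrocyte markers were higher (0.29, with sums of 31630 in CD47 KO cells and 26003 in WT cells). Neuron markers were divided, 6 higher and 6 lower (5 and 7 under each other scaling), with sums of 53371 in CD47 KO cells and 54073 in WT cells.

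Lists of vascular and border cell markers had medians below 0. Of the fibroblast and meningeal markers, 9 of 10 were lower, with a median Log2 ratio of -0.82 and summed signals of 7020 in CD47 KO cells and 11128 in WT cells. Of the endothelial markers, 9 of 11 were lower (-0.37), with sums of 12071 in CD47 KO cells and 14284 in WT cells. Pericyte and smooth muscle markers, of which 6 of 10 were lower (-0.35), had sums of 9707 in CD47 KO cells and 13220 in WT cells. Among them *Abcc9*, a pericyte channel gene, was more than 2-fold higher, with 558 in CD47 KO cells and 249 in WT cells (1.17). *Kcnj8*, *Higd1b* and *Vtn* were also above 0. *Cspg4* was more than 2-fold lower, with 78.0 in CD47 KO cells and 306 in WT cells (-1.97). It reached the array median in WT cells alone. *Acta2* was just past 2-fold lower, with 2002 in CD47 KO cells and 4004 in WT cells. *Rgs5*, *Myh11*, *Pdgfrb* and *Tagln* were also below 0. All 5 expressed border macrophage markers were lower (-0.72), with sums of 1982 in CD47 KO cells and 3187 in WT cells. Of blood cell markers, 7 of 9 for neutrophils (-0.29) and 5 of 6 for monocytes (-0.29) were lower. Their sums were 74588 and 19067 in CD47 KO cells and 78040 and 23305 in WT cells. Median Log2 ratios were 0.12 for T and NK cell markers (5 higher, 3 lower) and -0.34 for B cell markers (1 higher, 4 lower). They were -0.34 for choroid plexus and ependymal markers (3 higher, 4 lower) and 0.02 for oligodendrocyte markers (5 higher, 4 lower). The oligodendrocyte median was below 0 after quantile or loess normalisation. Erythroid markers had a median of 0.47 over 2 genes. No marker was listed at 0. As for *Cspg4*, the filter partly set the direction of markers that reached the array median on 1 array only. In WT cells alone these were *F13a1*, *Lum*, *Col3a1*, *Tie1*, *F10*, *Cd3e* and *Ms4a1*. In CD47 KO cells alone they were *Higd1b* and *Ccdc153*. The counts of lower and higher markers include these genes. The members themselves differed in both directions, and the part of these marker differences in the values of the members was not tested.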

How the data were processed

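RNA of brain mononuclear cells, pooled by genotype, was read on 1 array for CD47 KO and 1 for WT mice. The authors used the Expression Console Software on the scans (version not given in the sources used here), and MAS5 is named in the submitters' processing notes. The deposited values are one linear signal intensity per probe set, with a trimmed mean (2% at each end) of 500.0 on both arrays, and they were used without an offset. Of 45101 probe sets, 34945 had exactly 1 symbol, 932 several, 9160 none and 64 were controls.

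A gene was valued by its probe set of highest mean signal. Every member is named. Both signals are given for members past 1.5-fold, the 5 brightest of each class and members whose probe sets differ by more than 1 in Log2 ratio. Of related lists genes past 2-fold are named. Of marker lists up to 2 of the brightest are named, and all for pericyte and smooth muscle markers. Markers that reached the array median on 1 array only are named too. *Xist*, *Cd47* and the members given with both signals beyond this rule were chosen after their values were seen. The members and lists were chosen with earlier results of these data known. *Mrtfa* is an updated symbol. Alternatives changed the filter, normalisation, treatment of low signals, choice of probe set and fold threshold. The calculation was tested on simulated data with large planted changes and less noise than the spread between probe sets here. This checks the calculation and not the error of these arrays. Python 3.11.15, numpy 2.4.6, pandas 2.3.3, statsmodels 0.14.6 and matplotlib 3.10.9 were used.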

Additional observations from a re-analysis of the deposited data

How the results depend on the processing

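Counts were recomputed under 12 alternatives, and medians and single genes under up to 11, the change of fold threshold having no bearing on them. The count of immediate early members more than 2-fold higher in CD47 KO cells, 1 as reported, was 2 with no signal filter, where *Npas4* was added, and 2 when probe sets marked as able to cross-hybridise were dropped, where *Nr4a2* had 1.26. It was 0 with the median required on both arrays, 0 with the mean of both signals at or above the mean of the medians, and 0 with the 75th percentile required on at least 1 array, because *Fosl1* was then left out. The count more than 2-fold lower, 0 as reported, was 2 at 1.5-fold. The heat shock counts were 0 throughout. The median Log2 ratio ran from -0.01 to 0.05 for immediate early members and from -0.02 to 0.04 for heat shock members. *Fosl1* ran from 1.40 to 2.74 over the 8 alternatives that kept it. Of 433 values of single genes, 431 moved by less than the SD between probe sets in their band of brightness. The 2 that moved by more were *Nr4a2*, above, and *Hspa1b*, at -0.51 as a mean over its probe sets. Alternatives that changed only the signal filter cannot move the value of a gene. The SD is also larger than most Log2 ratios of the members, and *Fosl2*, at -0.79 as a mean over its probe sets, counted as not moved. The tally therefore cannot show that single values are stable. The median of all genes stayed within 0.1 of 0.

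No paired analysis was possible because each genotype has 1 array, so none was left out in turn. Low signals limit *Fosl1* and *Npas4* most, and detection calls were not used here.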
